A study of Mus musculus with 24 samples.

Results

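This account covers the female mice of the series that had spared nerve injury (SNI), and sets their medial prefrontal cortex (mPFC) against their anterior cingulate cortex (ACC). The members were the 3 SNI libraries of the female mPFC table and the 3 SNI libraries of the female ACC table, which makes 6 of the 24 libraries of the series. In SNI the common peroneal and sural branches of the sciatic nerve are cut and the tibial branch is spared, a standard model of neuropathic pain. The mice were C57BL/6 females by the labels (C57BL/6J in the study's methods), 3 months old by the labels, and the tissue was taken 2 weeks after surgery. For comparison, the text also uses sham-operated females, whose nerves were exposed but not injured, and males after SNI, each with 3 libraries per region. Each library held RNA from tissue punches pooled from several animals, so the spread between libraries is narrower than that between single mice. The region of a library comes from its label and its table, and whether the 2 regions of 1 pool came from the same animals is not stated. Each region has a table of its own, so region and any difference between the tables cannot be told apart.

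The mPFC and the ACC are neighbouring areas on the medial wall of the frontal cortex, and both take part in the emotional side of pain. Their neurons are stacked in layers that differ in their outputs and in the genes they express, and a minority of the neurons are inhibitory. Among the inhibitory neurons, cells that make the calcium-binding protein parvalbumin fire at high rates and need fast sodium and potassium channels, rapid vesicle release and much energy. Areas of cortex differ in how well each layer and each inhibitory class is represented. In bulk tissue such as this, fewer cells of a type and less RNA per cell cannot be told apart.

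The 6 libraries held between 23932468 and 30391957 reads counted on genes, and 3 counts corresponded to 0.0998 to 0.126 CPM, the counts scaled to library size. The regions separated on the first principal component, which held 46.2% of the variance, where the mPFC libraries ran from -14.9 to -12.6 and those of the ACC from 10.6 to 19.9. The second component, with 16.4% of the variance, separated mPFC replicate 1 at 16.4 from mPFC replicate 2 at -11.9. mPFC replicate 1 held the least oligodendrocyte RNA of the 6, with a sum of 1720 CPM over 30 marker genes against 3570 to 5480 CPM in the other 5 libraries. 2 sham libraries used for comparison also stood apart, mPFC replicate 3 in how its counts moved with GC content and ACC replicate 1 in its choroid plexus RNA, and their values stand beside the results they touch. For the labelled sex, Xist on the X chromosome was at 561 to 765 CPM and Ddx3y on the Y chromosome at 0 to 7 counts. The labelled tissue was checked as cortex by 2 markers, which cannot tell the mPFC from the ACC. Slc17a7, the vesicular glutamate transporter of cortical excitatory neurons, was at 1509 to 1768 CPM, and Ttr, the defining transcript of the choroid plexus, was at 0.273 to 1.70 CPM.

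Expression differed between the regions over much of the transcriptome, with small differences in most genes. Of 16930 genes tested, 4668 were called at a false discovery rate (FDR) under 0.1, which is 27.6% of those tested. Of these, 2317 were higher in the mPFC (13.7%) and 2351 were higher in the ACC (13.9%). The median absolute log2 fold change of the called genes was 0.309, and 296 genes were over 2-fold higher in the mPFC, against 139 on the ACC side. The 3 libraries of 1 region all lay above the 3 of the other for 6365 genes (37.6%). Without ACC replicate 1 the count of called genes was 2878, and without each of the other libraries it was between 3491 and 5455. Of the called genes, 1282 overlap another gene on the same strand and 2142 overlap a gene on the opposite strand. The strand mode of the counting is not given in the sources used here, so reads of such genes may be shared or lost.

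**Figure D1:**
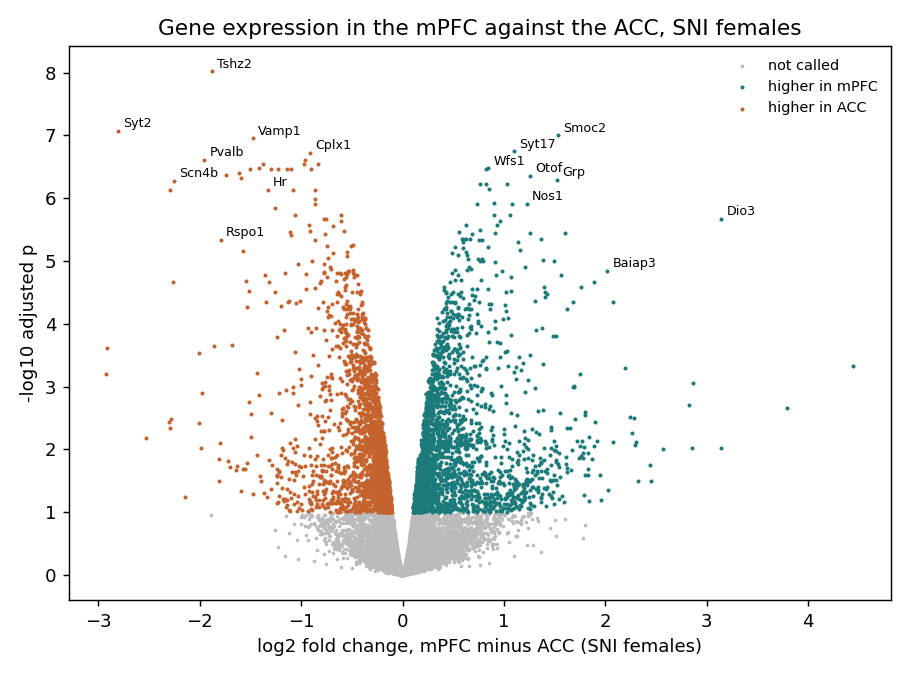
Each point is 1 of 16930 genes, with the log2 fold change (mPFC minus ACC, SNI females) on the x axis and -log10 of the adjusted p on the y axis. Teal points are the 2317 genes called higher in the mPFC, orange points the 2351 called higher in the ACC and grey points the genes not called; Tshz2 has the smallest adjusted p (9.48e-09).

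The gene with the smallest adjusted p was Tshz2, a zinc finger transcription factor of deep-layer projection neurons. Its level was 35.4, 38.4 and 34.4 CPM in the 3 mPFC libraries and 140, 123 and 136 CPM in the 3 ACC libraries. The ACC libraries all lay above the mPFC libraries, and the means were 36.1 ± 2.08 and 133 ± 8.95 CPM (SD, n = 3 each). The log2 fold change was -1.88 ± 0.0619 (SE), with an adjusted p of 9.48e-09. Tshz2 is at chr2:169633013-170071816 on the plus strand (GRCm38).

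Genes of parvalbumin and fast-spiking neurons were higher in the ACC. Of the 27 genes of this list, 22 were called higher in the ACC and 0 higher in the mPFC, and the median log2 fold change was -0.77 against 0.00 over all genes tested. Over all genes tested 13.7% were called higher in the mPFC and 13.9% higher in the ACC. Those shares are the background for this and every later list count of the SNI females. The sum over the list was 2470 to 2720 CPM in the mPFC and 4160 to 4620 CPM in the ACC. The 5 members that were not called were Tac1, Slit2, Tmem132c, Gpr176 and Pthlh, with log2 fold changes of -0.03, 0.07, 0.11, -0.17 and -0.48. Without mPFC replicate 1 the list had 23 genes called higher in the ACC and a median of -0.74. Pvalb itself, which encodes parvalbumin, was at 9.65, 8.94 and 11.9 CPM in the mPFC and 43.3, 38.3 and 36.8 CPM in the ACC. It was 3.88-fold higher in the ACC, with a log2 fold change of -1.96 ± 0.10 and an adjusted p of 2.46e-07.

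Genes of transmitter release at the terminals of these neurons were among the strongest. Syt2, the fast calcium sensor of vesicle release, was at 13.2, 9.94 and 14.1 CPM in the mPFC and 99.1, 84.5 and 76.7 CPM in the ACC. It was 7.01-fold higher in the ACC (log2 fold change -2.81 ± 0.117, adjusted p = 8.5e-08). Vamp1, a vesicle SNARE protein, was at 55.6, 51.7 and 56.2 CPM in the mPFC and at 167, 150 and 138 CPM in the ACC, with a log2 fold change of -1.48 ± 0.0668. Cplx1, a complexin that clamps the SNARE complex, was at 336 to 344 CPM in the mPFC and 616 to 667 CPM in the ACC, with a log2 fold change of -0.91 ± 0.0445. For these genes, no mPFC library reached the lowest ACC library.

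The ion channels of fast firing moved the same way. Scn4b, a sodium channel subunit linked to resurgent current, was at 27.4, 17.7 and 17.3 CPM in the mPFC and 108, 98.1 and 88.8 CPM in the ACC, with a log2 fold change of -2.25 ± 0.136 and an adjusted p of 5.34e-07. Scn1a, the main sodium channel of these neurons, was 2.15-fold higher in the ACC (100 ± 10.1 against 215 ± 6.51 CPM). Kcnab3, a beta subunit of potassium channels, was 3.06-fold higher in the ACC (log2 fold change -1.61 ± 0.093). Kcng4, a modifier of delayed rectifier channels that was not in the fast-spiking list, was at 1.77 ± 0.25 CPM in the mPFC and 8.66 ± 0.799 CPM in the ACC, which is 4.91-fold. Hapln4, a link protein of the perineuronal net that wraps these cells, was 1.89-fold higher in the ACC.

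**Figure D2:**
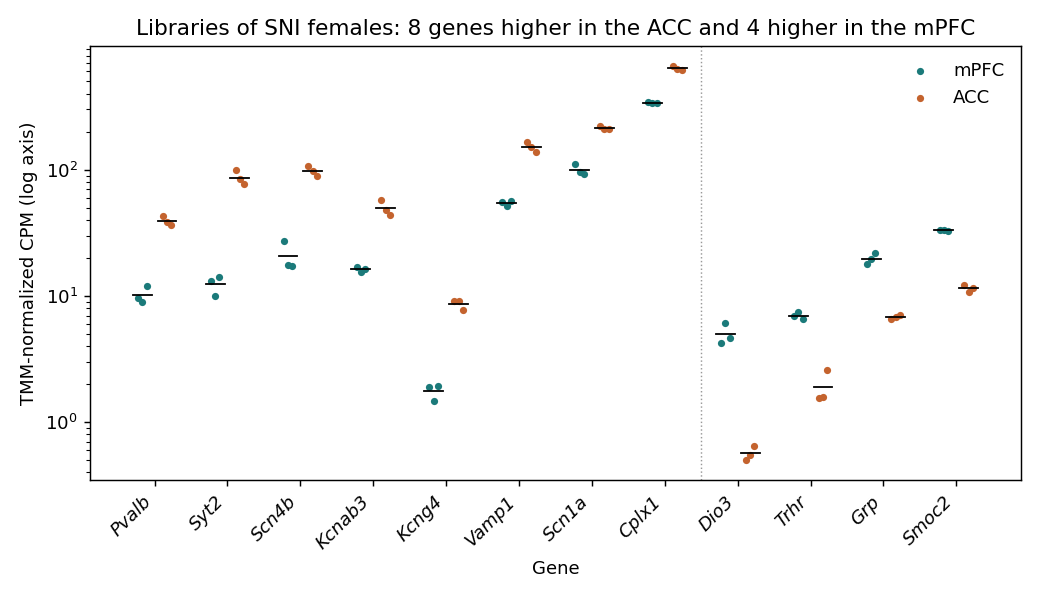
The plot gives TMM-normalized CPM on a log axis for each library of the SNI females, teal for the mPFC and orange for the ACC, with a black line at the mean of 3 libraries. Left of the dotted line are Kcng4 and 7 genes of the fast-spiking list, higher in every ACC library than in any mPFC library, and right of it are Dio3, Trhr, Grp and Smoc2, for which the mPFC libraries are the higher ones.

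The promoters of members that moved together are shown with that of Dio3, described below, which moved the other way. Each is the window from 250 bases before to 50 bases after a transcription start in RefSeq (GRCm38.p6), read 5′ to 3′ on the strand of the gene, and the first window is given where RefSeq lists several. Capitals mark the letters AAGGTCA on either strand, the half-site bound by estrogen-related receptors. One of these receptors, Esrrg, is a member of the list and was called higher in the ACC (log2 fold change -0.77 ± 0.0939); it is named here for the motif, after its value was seen.
Pvalb, chr15:78206351-78206650, minus strand: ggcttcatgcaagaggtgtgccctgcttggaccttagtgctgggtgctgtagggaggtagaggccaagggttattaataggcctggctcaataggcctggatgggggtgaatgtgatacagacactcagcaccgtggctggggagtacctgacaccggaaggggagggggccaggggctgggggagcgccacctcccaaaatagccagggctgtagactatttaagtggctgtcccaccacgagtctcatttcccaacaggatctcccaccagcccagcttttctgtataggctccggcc
Syt2, chr1:134646362-134646661, plus strand: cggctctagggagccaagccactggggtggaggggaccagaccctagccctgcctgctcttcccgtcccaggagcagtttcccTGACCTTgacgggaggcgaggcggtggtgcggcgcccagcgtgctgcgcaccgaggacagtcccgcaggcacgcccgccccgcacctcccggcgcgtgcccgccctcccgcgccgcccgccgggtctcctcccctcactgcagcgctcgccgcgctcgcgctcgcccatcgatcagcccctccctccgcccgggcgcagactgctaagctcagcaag
Scn4b, chr9:45138374-45138673, plus strand: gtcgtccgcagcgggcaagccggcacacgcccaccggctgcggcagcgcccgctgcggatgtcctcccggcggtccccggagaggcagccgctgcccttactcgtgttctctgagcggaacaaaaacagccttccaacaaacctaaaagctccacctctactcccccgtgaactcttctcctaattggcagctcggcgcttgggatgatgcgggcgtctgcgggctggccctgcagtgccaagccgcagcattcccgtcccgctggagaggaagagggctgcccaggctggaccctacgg
Vamp1, chr6:125215331-125215630, plus strand: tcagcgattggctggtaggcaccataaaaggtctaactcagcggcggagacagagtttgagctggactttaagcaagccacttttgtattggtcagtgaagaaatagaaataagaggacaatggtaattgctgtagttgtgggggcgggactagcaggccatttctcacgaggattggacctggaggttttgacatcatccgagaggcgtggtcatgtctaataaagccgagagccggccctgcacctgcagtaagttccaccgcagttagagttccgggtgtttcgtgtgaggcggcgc
Dio3, chr12:110278980-110279279, plus strand: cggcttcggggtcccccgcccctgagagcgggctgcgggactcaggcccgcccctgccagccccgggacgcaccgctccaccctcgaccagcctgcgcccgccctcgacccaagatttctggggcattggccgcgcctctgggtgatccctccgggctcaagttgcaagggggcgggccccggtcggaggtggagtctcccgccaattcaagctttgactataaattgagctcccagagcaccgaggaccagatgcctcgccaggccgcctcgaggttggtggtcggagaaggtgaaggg
A window was found for 18 of the 27 fast-spiking genes. The letters were in the windows of 1 of these 18 genes, Syt2, which is 5.56%. Of 11950 tested genes with a window, 488 held them (4.08%), so the share in the list was near that of all genes. The match in Syt2 starts at position -167 from the transcription start, on the minus strand.

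The other lists of inhibitory neurons differed in direction. Of 14 general inhibitory genes, 7 were called higher in the ACC and 0 higher in the mPFC, with a median log2 fold change of -0.10. Gad1, the main enzyme that makes GABA, was 1.40-fold higher in the ACC (256 ± 1.86 against 357 ± 2.20 CPM, adjusted p = 5.61e-06). Of the 11 somatostatin and Npy genes, 5 were called higher in the mPFC and 1, the peptide gene Npy, higher in the ACC (log2 fold change -0.41 ± 0.0853). Nos1, neuronal nitric oxide synthase, was at 122, 149 and 127 CPM in the mPFC and 50.0, 60.4 and 59.9 CPM in the ACC, which is 2.34-fold higher in the mPFC. Somatostatin (Sst) had a log2 fold change of 0.06 ± 0.0703 (adjusted p = 0.581), and Vip one of -0.05 ± 0.0798 (adjusted p = 0.744). Lamp5, which marks a class of superficial inhibitory neurons and is also expressed by excitatory neurons, was 2.16-fold higher in the ACC. Of the 17 tested genes of the Vip, Cck and Lamp5 list, 7 were called higher in the mPFC and 5 higher in the ACC, with a median of 0.15.

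The layer markers split by layer and within layers. Of the 8 layer 4 genes, 5 were called higher in the ACC and 1 higher in the mPFC, with a median of -0.62. Rspo1, a Wnt agonist of layer 4, was at 4.05, 2.96 and 4.51 CPM in the mPFC and 14.9, 13.1 and 11.8 CPM in the ACC, a log2 fold change of -1.79 ± 0.142, and Hsd11b1 had one of -1.03 ± 0.091. Rorb, the defining transcription factor of layer 4, had a log2 fold change of 0.10 ± 0.075 and was not called (adjusted p = 0.401). Of the 15 layer 6 genes, 7 were called higher in the mPFC and 1, Tbr1, higher in the ACC (log2 fold change -0.13 ± 0.044), with a median of 0.24. Foxp2, a transcription factor of layer 6, had a log2 fold change of 0.44 ± 0.128 (adjusted p = 0.0281), and its libraries overlapped between the regions.

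In layer 2/3 the markers went both ways, 8 of 15 higher in the mPFC and 5 higher in the ACC. Wfs1, a membrane protein of the endoplasmic reticulum, was at 169, 169 and 167 CPM in the mPFC and 97.0, 95.2 and 88.5 CPM in the ACC. Otof, which encodes otoferlin, was 2.39-fold higher in the mPFC (log2 fold change 1.26 ± 0.0738). The transcription factors Pou3f2, Pou3f3 and Cux1 went the other way, with log2 fold changes of -0.63, -0.40 and -0.36, while their relative Cux2 was higher in the mPFC at 0.24 ± 0.0495. Of the 20 layer 5 genes, 7 were called in each direction: Tshz2 and Etv1 (-0.51 ± 0.0556) were higher in the ACC, and Crym, Vat1l and Bcl11b (0.93, 0.58 and 0.34) higher in the mPFC. Fezf2, which specifies layer 5 neurons that project below the cortex, was higher in the mPFC (log2 fold change 0.37 ± 0.0752). Slc17a6, a glutamate transporter used more in thalamus than in cortex, was at 9.65 to 9.90 CPM in the mPFC and 24.1 to 27 CPM in the ACC (log2 fold change -1.38 ± 0.0722), and it overlaps a gene on the same strand.

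Genes of thyroid hormone signalling held some of the largest differences. Dio3, the deiodinase that inactivates thyroid hormone, was at 4.21, 6.10 and 4.62 CPM in the mPFC and 0.499, 0.546 and 0.652 CPM in the ACC. It was 8.82-fold higher in the mPFC (log2 fold change 3.14 ± 0.224, adjusted p = 2.15e-06). The receptor gene Thra, the retinoid partner receptor Rxrg and Crym, which binds thyroid hormone in the cytosol, were also higher in the mPFC, with log2 fold changes of 0.54 ± 0.0505, 1.56 ± 0.146 and 0.93 ± 0.0865. Hr, Klf9 and Nrgn, which thyroid hormone is known to induce, were higher in the ACC. Hr was at 18.8 ± 0.744 against 47.2 ± 5.58 CPM (log2 fold change -1.33 ± 0.0835). Klf9 and Nrgn had log2 fold changes of -0.44 ± 0.055 and -0.44 ± 0.0536. Over the 21 genes of the list, 6 were called higher in the mPFC and 5 higher in the ACC, and the median was -0.02.

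Receptors for neuropeptides were called more often in the mPFC. Of 41 tested, 14 were called higher in the mPFC and 3 higher in the ACC, with a median of 0.18. Trhr, the receptor of thyrotropin-releasing hormone, was at 6.96, 7.5 and 6.55 CPM in the mPFC and 1.56, 1.57 and 2.61 CPM in the ACC (log2 fold change 1.89 ± 0.182), whereas the related Trhr2 had a log2 fold change of -0.97 ± 0.305, at 0.422 to 1.5 CPM. Ntsr1, a neurotensin receptor of layer 6 neurons, and Cnr1, the cannabinoid receptor counted with this list, had log2 fold changes of 1.18 ± 0.17 and 0.41 ± 0.0525. The other genes called higher in the ACC were Rxfp2 (-1.29 ± 0.337), at 0.337 to 1.30 CPM, and Ntsr2, an astrocyte receptor (-0.25 ± 0.0486).

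Of 22 neuropeptide genes tested, 8 were called higher in the mPFC and 5 higher in the ACC. Grp, gastrin-releasing peptide, was at 17.8, 19.6 and 21.7 CPM in the mPFC and 6.59, 6.83 and 7.13 CPM in the ACC, 2.88-fold higher in the mPFC. Tac2 and Pdyn, which encode neurokinin B and the dynorphins, had log2 fold changes of 0.73 ± 0.131 and 0.36 ± 0.0677. The enkephalin precursor Penk was higher in the ACC (log2 fold change -0.72 ± 0.10), as was Adm, adrenomedullin (-1.06 ± 0.254, at 0.843 to 2.90 CPM).

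Transmitter receptors and channels differed by subunit. Of 24 glutamate receptor genes, 12 were called higher in the mPFC and 4 higher in the ACC. Gria1, Grin3a and Grik3, subunits of the AMPA, NMDA and kainate types, had log2 fold changes of 0.38, 0.46 and 0.52, and Grm4 and Gria4 were at -0.38 and -0.20. Of 19 GABA and glycine receptor genes, 6 were called higher in the mPFC and 7 higher in the ACC. The extrasynaptic subunit Gabrd was higher in the ACC (-0.44), while Gabra2 and the glycine receptor subunits Glra2 and Glra3 were higher in the mPFC (0.26, 0.79 and 0.53).

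Potassium channel genes were called higher in the ACC in 32 of 72 cases and higher in the mPFC in 11, with a median of -0.13. Those higher in the mPFC included Kcnn3, a calcium-activated channel (0.71 ± 0.0738), Kcng1 (0.75 ± 0.0799) and Kcnd3, a channel of the A-type current (0.38 ± 0.0482). Of 35 sodium, calcium and HCN channel genes, 16 were called in each direction. Scn3a, Scn3b and Cacna1e were higher in the mPFC (0.50, 0.56 and 0.63), against Scn1a and Scn4b in the ACC. Among monoamine and acetylcholine receptors 10 of 38 were called higher in the mPFC and 8 higher in the ACC. The serotonin receptor Htr7 was 2.18-fold higher in the ACC and Htr1b 1.5-fold higher in the mPFC, and the muscarinic receptors Chrm2 and Chrm3 were higher in the ACC (-0.54 and -0.51).

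Genes of vesicle release outside the fast-spiking list included several that were higher in the mPFC. Syt17 was at 92.4, 94.1 and 86.5 CPM in the mPFC and 40.8, 42.7 and 44.1 CPM in the ACC (log2 fold change 1.10 ± 0.0527), and the calcium sensor Doc2b was 1.88-fold higher. The whole list of synaptotagmin and vesicle release genes also holds Syt2 of the fast-spiking list. Over its 37 tested genes 11 were called higher in the mPFC and 16 higher in the ACC.

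**Figure D3:**
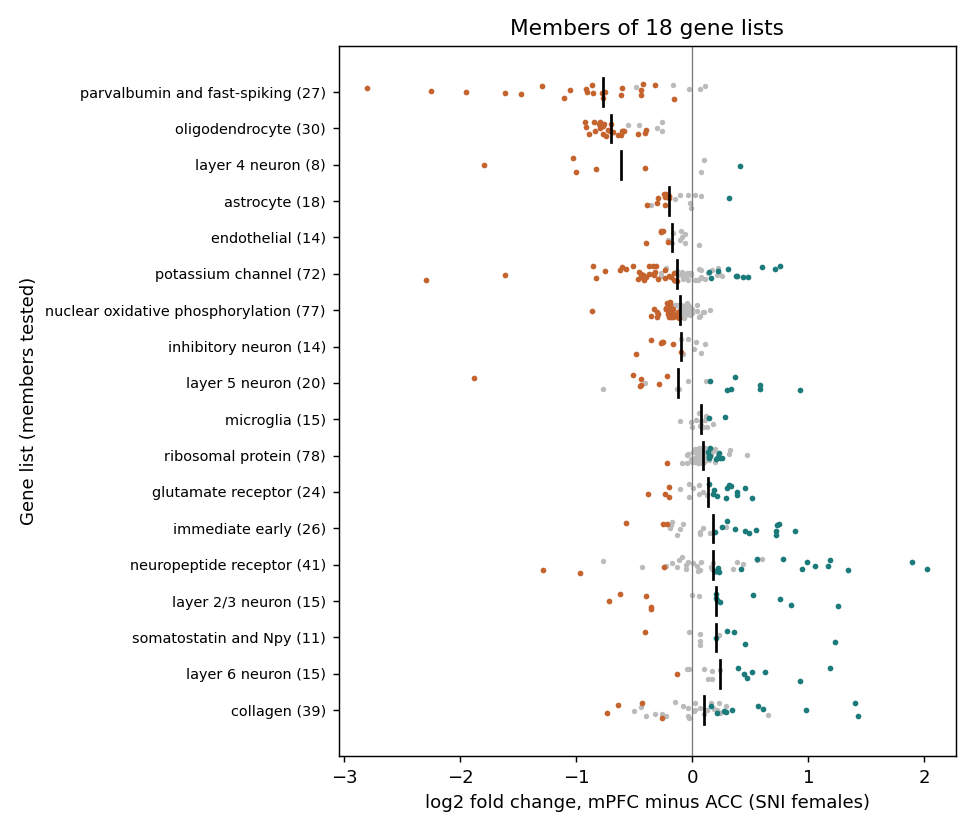
Each point is the log2 fold change (mPFC minus ACC, SNI females) of 1 tested member of the 18 lists named on the y axis, with the number of members tested in brackets. Teal and orange points are genes called higher in the mPFC and the ACC, grey points were not called and black lines are medians; the fast-spiking list has 22 of 27 points called on the ACC side and the neuropeptide receptors 14 of 41 on the mPFC side.

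Adhesion, guidance and matrix genes, which wire and pattern the cortex during development, differed in both directions. Of 70 axon guidance genes, 24 were called higher in the mPFC and 16 higher in the ACC. Robo3, a receptor of the Slit pathway, was at 5.52, 5.62 and 5.25 CPM in the mPFC and 20.1, 18.5 and 15.9 CPM in the ACC (log2 fold change -1.74 ± 0.101). Sema7a, a membrane semaphorin, was at -0.87 ± 0.0582, and its receptor Plxnc1 was higher in the mPFC (0.59 ± 0.0466), as was Nrp2 (0.65 ± 0.0719). Of 30 cadherins, 12 were called higher in the mPFC and 8 higher in the ACC. Cdh13 and Pcdh8 were higher in the mPFC (1.26 ± 0.096 and 0.86 ± 0.0535), and Pcdh7 and Cdh20 higher in the ACC (-0.91 ± 0.0686 and -0.75 ± 0.0834). Rora, a nuclear receptor of the list of area-patterning factors, was 2.11-fold higher in the ACC, and Bhlhe22, which patterns sensory areas, 1.67-fold higher in the mPFC. Over that list of 39 genes 9 were called higher in the mPFC and 11 higher in the ACC.

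Of 39 collagen genes, 10 were called higher in the mPFC and 4 higher in the ACC. Col6a1 was at 67.9, 107 and 84.0 CPM in the mPFC and 27.9, 36.5 and 33.9 CPM in the ACC, and its partner chain Col6a2 was 1.97-fold higher in the mPFC. Npnt, a matrix ligand of integrins, was at 12.7 ± 2.27 CPM in the mPFC and 37.5 ± 6.37 CPM in the ACC (log2 fold change -1.57 ± 0.131). Smoc2, a matrix-associated protein with the smallest adjusted p among genes higher in the mPFC (9.93e-08), was at 33.5, 33.6 and 32.8 CPM in the mPFC and 12.2, 10.8 and 11.5 CPM in the ACC. Of 30 matrix and perineuronal net genes, 3 were called higher in the mPFC and 10 higher in the ACC (5 without ACC replicate 1 or without ACC replicate 3).

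The other genes with the smallest adjusted p in the ACC were Scrt1, Lynx1, Inf2 and Nrep, with log2 fold changes of -0.96, -0.97, -0.83 and -1.41. Lynx1 is a brake on nicotinic receptors and Scrt1 a neuronal repressor of transcription. In the mPFC they were Ccn3, Arhgef28, Cpne6 and C1ql3, with log2 fold changes of 0.83, 1.03, 0.77 and 0.83, and C1ql3 is a secreted synaptic organiser. Among the 5 largest differences in each direction were also Gm14434, Dlk1 and Baiap3 in the mPFC (2.87 ± 0.457, 2.19 ± 0.323 and 2.02 ± 0.183). Those on the ACC side were Gm26673 and Tmem215 (-2.91 ± 0.389 and -2.27 ± 0.218). Gm14434 belongs to a family of near-identical zinc finger genes, and Gm26673 lies opposite another gene, so how their reads were counted is uncertain. Of the genes named in this account, Slc17a7, Nos1, Baiap3, Cdh13, Cdh20, Pcdh7, Plxnc1, Nrp2, Foxp2, Cux1, Pou3f3, Klf9, Rxfp2, Grik3, Grin3a, Grm4, Gria4, Kcnd3, Chrm2, Chrm3, Hsd11b1, Csf1r, Abcb1a, Trf, Rpl5, mt-Co3 and Rgma overlap a gene on the same strand.

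Oligodendrocyte genes were higher in the ACC, with 25 of 30 called and a median of -0.71. Mbp, which encodes myelin basic protein, was at 442, 1119 and 1008 CPM in the mPFC and 1412, 1178 and 1542 CPM in the ACC (log2 fold change -0.69 ± 0.24, adjusted p = 0.0621). mPFC replicate 1 was far below every other library. With DESeq2 in place of edgeR, Mbp, Trf, Mal and Cnp were not called. Without that library 24 of the 30 genes were still called higher in the ACC, and the median was -0.42. The count was 15 without ACC replicate 1 and 11 without ACC replicate 3. In sham females 20% of the list was called in either direction, against 28.5% of all genes. Over all genes, 14% were called higher in the mPFC and 14.5% higher in the ACC in sham females. In males after SNI those shares were 10.4% and 10.6%. They are the background for this and the later list counts in sham females and in males. The list had a median of 0.02 in sham females, with 5 of 30 higher in the ACC and 1 higher in the mPFC. In males after SNI its median was -0.46, with 26 of 30 higher in the ACC. Without sham ACC replicate 1 the sham median of the list was -0.11, and without sham mPFC replicate 3 it was 0.04. In both cases 5 of 30 genes were higher in the ACC, where 21.8% and 41.5% of all genes were called in either direction.

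**Figure D4:**
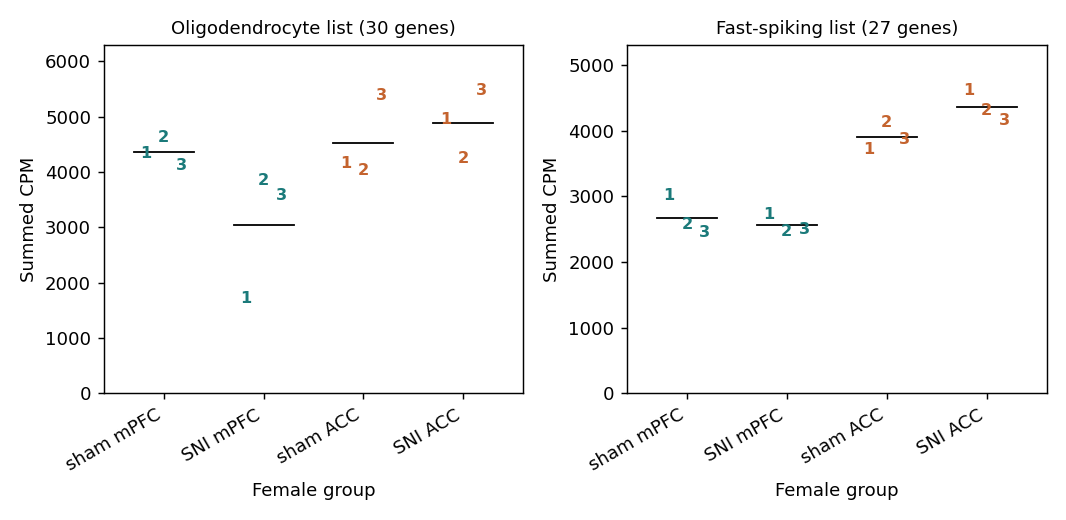
The digits mark the replicate number of each female library at its summed CPM over the 30 oligodendrocyte genes (left) and the 27 fast-spiking genes (right), with a black line at the mean of each group of 3. On the left, SNI mPFC replicate 1 is at 1720 CPM and the next lowest library at 3570 CPM; on the right, every ACC library lies above every mPFC library.

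Other glial and vascular lists had smaller medians. Astrocyte genes were higher in the ACC in 9 of 18 cases and higher in the mPFC in 1, with a median of -0.20, and Slc4a4 and S100b were at -0.31 and -0.39. The astrocyte genes Gfap and Aqp4 were not called (-0.02 ± 0.148 and -0.11 ± 0.0645). Of 15 microglial genes, 2 were called higher in the mPFC, C1qc (0.28 ± 0.078) and Csf1r (0.14 ± 0.0487), and 0 higher in the ACC. The mPFC share of 13.3% was near the 13.7% of all genes. Endothelial genes were called higher in the ACC in 5 of 14 cases, with Flt1 and Abcb1a at -0.27, and 0 were called higher in the mPFC. Of 15 oligodendrocyte precursor genes 4 were called higher in the mPFC and 3 higher in the ACC.

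Markers of tissue that lies next to these areas were also examined. Of 12 striatal genes tested, 5 were called higher in the mPFC and 0 higher in the ACC. Drd1 and Drd2, the dopamine receptors that mark the output neurons of the striatum, had means of 13.3 and 2.32 CPM in the mPFC and 7.36 and 0.939 CPM in the ACC, and both are also expressed in frontal cortex. The sum over the list was 322 to 340 CPM in the mPFC and 302 to 324 CPM in the ACC, which overlap. Septal genes were called higher in the mPFC in 5 of 9 cases (sums of 212 to 221 against 180 to 181 CPM) and olfactory and neuroblast genes in 3 of 10 (95.4 to 102 against 87.8 to 91.0 CPM). In sham females 1 of 9 septal genes was called higher in the mPFC and 0 higher in the ACC. The sham sums overlapped, at 196 to 233 CPM in the mPFC and 192 to 206 CPM in the ACC. In males after SNI 2 of 9 septal genes were called higher in the mPFC and 1 higher in the ACC. The choroid plexus and ependymal lists summed to between 5.47 and 12.2 CPM in each of the 6 libraries. Meningeal fibroblast genes were called higher in the mPFC in 3 of 17 cases, with a median of 0.03, and Col1a1 and Acta2 were not called (adjusted p = 0.819 and 0.698). In sham females 14 of the 17 were called higher in the ACC, with a median of -0.755. Without sham ACC replicate 1 that count was also 14, with a median of -0.532. In males after SNI 12 of the 17 were called higher in the ACC, with a median of -0.612. The part of such tissue in the regional differences was not tested.

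Immediate early genes, which neuronal activity induces, were called more often in the mPFC, though their summed levels overlapped between the regions. The sums were 2060 to 2530 CPM in the mPFC and 2150 to 2420 CPM in the ACC. Of 26 immediate early genes, 12 were called higher in the mPFC and 3, Ier5, Dusp6 and Nr4a2, higher in the ACC (6 without mPFC replicate 1). Fosb was at 50.9, 45 and 41 CPM in the mPFC and 28.6, 28.6 and 24.9 CPM in the ACC (log2 fold change 0.73 ± 0.0826), and Ptgs2 and Jun were at 0.72 and 0.36. Nuclear genes of oxidative phosphorylation were called higher in the ACC in 28 of 77 cases and higher in the mPFC in 0, with a median of -0.11, and without ACC replicate 1 the count was 18. Of them, Atp5f1 and Cox5a were at -0.30 and -0.36. Ribosomal protein genes were called higher in the mPFC in 10 of 78 cases and higher in the ACC in 1, Rpl5, with a median of 0.09, where 13.7% of all genes were called higher in the mPFC. Without mPFC replicate 1, 43 of the 78 were called higher in the mPFC and the median was 0.15, and without each of the other libraries 4 to 6 were. Of 12 mitochondrially encoded genes 3 were called, mt-Co1 (-0.20), mt-Co2 (0.96) and mt-Co3 (-0.61), and mt-Co2 at 362, 1120 and 842 CPM in the mPFC varied within the region by more than its difference from the ACC (358 to 462 CPM). Nuclear copies of mitochondrial genes can share these reads. In sham females 10 of the 12 mitochondrially encoded genes were called higher in the ACC, with a median of -0.523. In males after SNI 8 of the 12 were called higher in the mPFC, with a median of 0.462.

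Of the 20 tested genes that the study follows for their response to SNI, 4 were called higher in the mPFC and 7 higher in the ACC. They were chosen by the study on these samples and are no independent evidence. Scn4b and Syt2 are among them, and the myelin-related genes Trf, Mal and Cnp, counted in both this and the oligodendrocyte list, had log2 fold changes of -0.79 ± 0.216, -0.64 ± 0.221 and -0.59 ± 0.208. For each of these 3, mPFC replicate 1 was the lowest library. Myh14, a non-muscle myosin, was at -0.40 ± 0.0599.

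The next comparison asks whether the regional difference was that of uninjured females. In sham females 4773 of 16746 genes were called between the regions (28.5%), 14% higher in the mPFC and 14.5% higher in the ACC. Over 16527 genes tested in both, Spearman's rho between the log2 fold changes was 0.556, a correlation across genes of different libraries, and genes are not independent replicates. Of the 4596 genes called after SNI and tested in sham, 89.2% had the same direction in sham, against 71.4% of all genes. Both comparisons called 2587 genes in the same direction (56.3% of those called after SNI and 54.4% of those called in sham) and 13 in opposite directions. With a correction for the GC content of genes, described below, 4025 genes were called in sham, of which 2806 were among the 4773. After SNI the correction gave 4825 genes, of which 4333 were among the 4668. The agreement was not computed with that correction. In sham females the fast-spiking list had 21 of 27 genes higher in the ACC and 1 higher in the mPFC, with a median of -0.54. Without sham mPFC replicate 3 the sham count was 7084 genes and the list had 20 genes higher in the ACC, with a median of -0.49. Syt2 was at -1.99 ± 0.239 on the log2 scale in sham, Pvalb at -1.59 ± 0.142 and Scn4b at -1.29 ± 0.195. Dio3 was at 2.51 ± 0.219 in sham, Grp at 1.21 ± 0.118 and Trhr at 1.07 ± 0.173. Most of these genes were named for their values in SNI females. Their sizes in sham, and in males below, are therefore not compared on equal terms.

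The difference of these differences was tested with the region by SNI interaction over the 12 female libraries. It called 0 of 17451 genes with edgeR's quasi-likelihood test (0%), with a lowest adjusted p of 0.428. At an unadjusted p under 0.05 there were 1932 genes (11.1%). DESeq2 also called 0, the likelihood ratio test called 17, and the quasi-likelihood test without a low-count filter called 672. The fast-spiking list had a median interaction of -0.27 and the oligodendrocyte list one of -0.69, with 0 genes called in either. Without SNI mPFC replicate 1 these medians were -0.30 and -0.42. Scn4b had an interaction of -0.95 ± 0.284 on the log2 scale and Syt2 one of -0.82 ± 0.316, both with an adjusted p of 0.428. The study chose both genes for their response to SNI in these samples. Their interaction values, here and below, are therefore no independent evidence. The genes with the smallest p in each direction included Olfr1336 (0.93) and Gm17555 (1.03), and Vangl2 (-0.64), Fbxo32 (-0.61) and Rgma (-0.56), none of which was called.

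The count of 0 changed with 1 library of the sham group. Without sham mPFC replicate 3 the same test called 2070 of 17821 genes (11.6%), 1050 with a larger mPFC minus ACC value after SNI and 1020 with a smaller one. Then 10 of the 27 fast-spiking genes were called, each with a log2 fold change more to the ACC side after SNI, among them Scn4b (-1.16 ± 0.24, adjusted p = 0.0251), Cplx1 (-0.42 ± 0.0935, adjusted p = 0.0301) and Syt2 (-1.01 ± 0.297, adjusted p = 0.0634). Pvalb was not called (-0.47 ± 0.189, adjusted p = 0.145). Scn4b and Syt2 are among the genes that the study chose on these samples. Of the meningeal fibroblast genes 13 of 17 were called and of the mitochondrially encoded genes 11 of 12, all with larger mPFC minus ACC values after SNI.

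Sham mPFC replicate 3 differed from the other libraries of its group in how counts moved with the GC content of genes. Spearman's rho across genes between GC content and the deviation from the group mean was -0.585 in this library, and 0.378 and 0.374 in sham mPFC replicates 1 and 2. With a GC correction the test without that library called 23 genes (0.129%), with 0 of the 27 fast-spiking genes, 0 of the 12 mitochondrially encoded genes and 1 of the 17 meningeal genes. The median interaction of the fast-spiking list was then -0.177, against -0.355 without the correction. Scn4b had an interaction of -1.02 ± 0.251 (adjusted p = 0.167) and Syt2 one of -0.93 ± 0.303 (adjusted p = 0.263). With the correction and all 12 libraries 0 genes were called, and the fast-spiking list had a median of -0.145, against -0.273 without the correction. Sham ACC replicate 1 also stood apart, with 1040 CPM summed over the choroid plexus list against 5.47 to 13.8 CPM in the other 11 female libraries. Without it, 0 genes were called in the interaction. Every other female library left out in turn gave between 0 and 3 called genes.

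**Figure D5:**
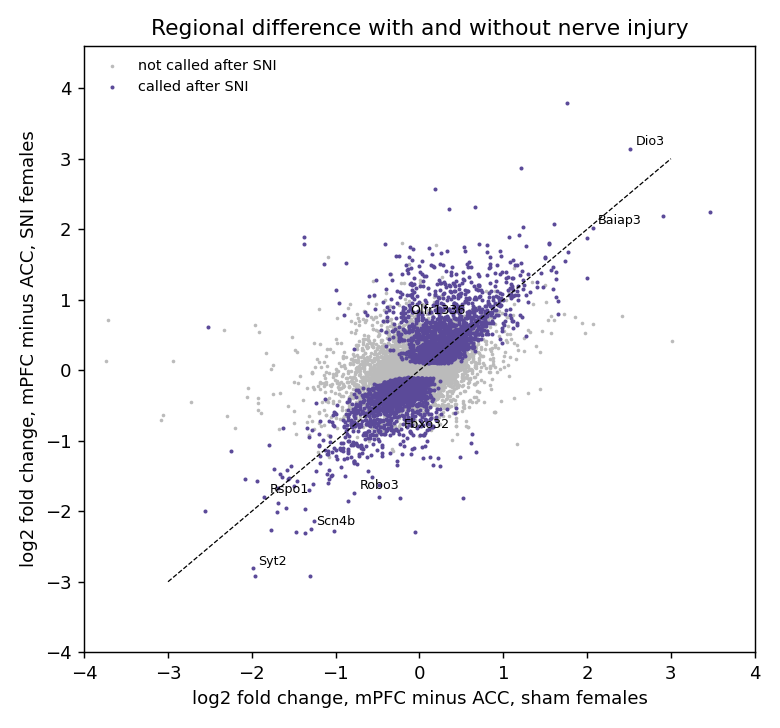
Each point is a gene tested in both comparisons, with the log2 fold change (mPFC minus ACC) in sham females on the x axis and in SNI females on the y axis, purple where called after SNI and grey where not; the dashed line marks equal values and 2 genes lie outside the axes. Most purple points have 1 sign on both axes, with 89.2% of the genes called after SNI on the same side in sham.

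In males after SNI, 3536 of 16872 genes were called between the regions (21%), and 92.3% of the genes called in SNI females and tested in males had the same direction, against 72.5% of all genes. Both sexes called 2329 genes in the same direction and 2 in opposite directions, and Spearman's rho across 16615 genes was 0.606. Over all genes 10.4% were called higher in the male mPFC and 10.6% higher in the male ACC. The fast-spiking list had 19 of 27 genes higher in the male ACC and 1 higher in the mPFC, with a median of -0.57. Syt2, Scn4b and Pvalb were at -2.55 ± 0.154, -1.88 ± 0.0981 and -1.59 ± 0.138 on the log2 scale, and Dio3 was at 2.19 ± 0.23. The region by sex interaction called 1 of 17533 genes (0.0057%), the processed pseudogene Gm5641, and 1422 genes had an unadjusted p under 0.05 (8.11%). DESeq2 called 12 genes and the likelihood ratio test 39. The lists of the 3 comparisons shared 1430 called genes with 1 direction, 771 higher in the mPFC and 659 higher in the ACC.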

How the data were processed

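RNA-seq of punches of mPFC and ACC was counted per gene by the authors, and the deposited values are raw read counts with no normalization. The submitters' processing notes name Trimmomatic 0.36, Bowtie2 2.33, HISAT2 2.1.0, HTSeq 0.9.1, edgeR 3.34.0 and the build GRCm38. The annotation release and the strand mode are not given in the sources used here; identifiers, positions and overlaps were taken from GENCODE M21. Genes were filtered with filterByExpr (count minimum 10, total minimum 15), scaled by TMM and tested with edgeR 4.0.16 in R 4.3.3 by the quasi-likelihood F-test, on the samples of each comparison, with Benjamini-Hochberg adjustment over all genes tested and calls at an FDR under 0.1. Interactions used all 12 libraries concerned. Lists were described by counts and medians only. Replicates are separate pools, and p-values measure only the spread between these pools, part of which may be technical. With 3 against 3 libraries an exact permutation test cannot go below 0.1. Values after ± are SDs over libraries or SEs of the fit, and both include the spread between these pools. The floor of 3 counts covers counting error only. Named genes were the 10 per direction with the smallest adjusted p and the 5 with the largest change (non-overlapping, at least 1 CPM), up to 3 per direction and list, defining markers, and genes the study names. Members and lists were chosen with earlier results of these data known. The scripts were tested on simulated data. Alternatives were DESeq2 1.42.0, other size factors, filters and tests, 1 model over all 24 samples, a replicate block, leaving out each library and, chosen after seeing the data, a GC correction. Some genes that this rule names are not reported here.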

Additional observations from a re-analysis of the deposited data

Results flagged for a closer look

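The regional difference of the processed pseudogene Gm5641 differed between the sexes after SNI by the region by sex interaction, at -8.42 on the log2 scale (adjusted p = 0.0663). The call was lost with the replicate block (lowest adjusted p over all genes 0.362), with 1 model over all 24 samples (0.87), with the GC correction (0.13) and on leaving out each of 6 of the 12 libraries, and a filter of at least 10 counts in every sample removed the gene. Its counts were 27, 163 and 168 in the female mPFC and 227, 208 and 233 in the female ACC, and 527, 132 and 93 in the male mPFC and 0, 0 and 3 in the male ACC. Processed pseudogenes can share reads with near-identical copies, so the counts are uncertain, and the gene was chosen by its test result.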

How the results depend on the processing

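The regional count after SNI in females (4668) ranged from 3535 with DESeq2 to 5094 without a low-count filter under the settings that kept all libraries, and from 2878 (without ACC replicate 1) to 5455 (without mPFC replicate 1) on leaving out single libraries. The sham count ranged from 2268 to 7084 and the male count from 2132 to 3838 on leaving out single libraries. The region by SNI count of 0 became 672 without a filter, 17 with the likelihood ratio test, 0 to 2070 on leaving out single libraries and 23 with the GC correction and without sham mPFC replicate 3. The region by sex count of 1 became 12 with DESeq2, 367 without a filter, 39 with the likelihood ratio test, 0 with at least 10 counts in every sample, with 1 model over all 24 samples, with the replicate block and with the GC correction, and 0 to 20 on leaving out single libraries. The causes were not tested. Same-numbered mPFC and ACC libraries correlated at 0.004, 0.0046 and 0.053 in their deviations from the group mean, so no pairing by number was seen. That cannot settle whether such libraries came from the same animals. The replicate block gave 4464 genes after SNI in females and 0 in the region by SNI and region by sex tests. On leaving out single libraries the log2 fold change of these genes, none of them called with all libraries, crossed 0 (Acta2 was called without mPFC replicate 1, adjusted p = 0.075): Vip (-0.108 to 0.0414), Gfap (-0.217 to 0.155), Acta2 (-0.135 to 0.298), Col1a1 (-0.115 to 0.0427), Col3a1 (-0.356 to 0.118), Ttr (-0.254 to 1.28) and Rgma (-0.114 to 0.0847). Of the values of named genes under the alternatives, 2530 kept their direction and side of the threshold, 69 lost and 9 gained the call, and 14 changed sign. At this depth, genes under 0.126 CPM lie at the floor of 3 counts.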
